A study of Arabidopsis thaliana with 24 samples.

Results

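PRX52, AT5G06730, AT4G36430 and AT5G39580 are 4 genes of the class III peroxidase family of Arabidopsis thaliana. They were chosen by their log2 transcript levels over the study's groups, as members whose root levels moved up or down with cadmium in one or both genotypes. Each was read from the only probe set annotated to it and to no other gene. They are 4 of the 55 class III peroxidase genes that have such a probe set, out of 73 family loci, and of 22746 probe sets in all. Because levels over all 8 groups chose these genes, every comparison of theirs is given below as a description, with no test.

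Class III peroxidases are secreted haem enzymes of plants that use hydrogen peroxide to oxidise phenolic compounds in the cell wall and apoplast. They couple monolignols into lignin and cross-link wall proteins, which stiffens walls, and they can also generate reactive oxygen species, which loosens them. Roots are known for a large number of active family members. PRX52 has been tied to lignification of the stem. AT5G39580 has been tied to root hair growth at low temperature. The family is large and holds tandem duplicates, and AT5G06730 lies beside PA2, a neighbouring peroxidase gene that has no probe set of its own here.

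The study compared the oas-a1.1 mutant, the T-DNA line SALK_072213, with the Col-0 wild type (WT). The mutant carries an insertion in OASA1, which encodes the cytosolic O-acetylserine(thiol)lyase that makes cysteine, the precursor of the cadmium-binding thiols glutathione and phytochelatin. The root groups were oas-a1.1 given CdCl2 for 18 h, oas-a1.1 untreated, WT given CdCl2 for 18 h and WT untreated. The shoot groups were the same 4, with CdCl2 for 24 h. All plants were grown on agar plates and then in hydroponic culture, and each group had 3 biological replicates, each on 1 ATH1 array, 24 arrays in all. Sources conflict on the dose, which is 50 µM by the study's design but 50 mM by its protocols, so it is uncertain here. The mutant is a single insertion line, and no source says at which hour untreated plants were harvested. Organ and hours of treatment cannot be told apart, so cadmium responses were not compared between organs.

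Levels below are log2 values on the arrays, and a difference of 1 is a 2-fold change. No probe set is named as OASA1 in the annotation used here. One unnamed probe set fell most in all 4 comparisons of mutant with WT, with 4.05 to 4.51 on the mutant arrays and 10.48 to 12.28 on the WT arrays. All 3 measured root markers, EXPA7, EXPA18 and PYK10, were higher on every root array than on every shoot array. Replicates correlated at 0.971 to 0.993 across probe sets. A 25S ribosomal RNA control was at 4.62 to 6 on 8 arrays and at 7.72 to 11.96 on the other 16. The low arrays included the first replicate of oas-a1.1 cadmium, oas-a1.1 untreated and WT cadmium roots, and the results below were repeated without all 8.

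PRX52 and AT5G06730 were high in 1 of the 8 groups, cadmium-treated roots of the mutant. PRX52 read 6.60, 9.03 and 7.95 in cadmium-treated oas-a1.1 roots, against 4.52, 4.34 and 4.25 in untreated oas-a1.1 roots. In WT roots it read 4.67, 4.72 and 5.59 under cadmium, against 4.24, 4.90 and 4.62 untreated. The mutant's cadmium arrays stood above all others, with a spread of more than 2 log2 units among them, whereas the cadmium and untreated WT roots overlapped. The cadmium difference for PRX52 was 3.49 ± 0.48 (log2, limma SE, n = 3 each), or 11.2-fold, in the mutant and 0.41 ± 0.48 in WT. It placed 10th from the top of the 22746 probe sets in the mutant. The limma SE pools the spread of the root groups, whereas the 3 mutant cadmium arrays alone had an SD of 1.22. No detection calls were used here, so whether the low levels of PRX52 and AT5G06730 in untreated roots, and of all 4 genes in shoots, lie above background was not tested. A fold or rank against such a level describes the array values and may understate the change. On the arrays with high 25S signal alone, which leaves out the lowest of the 3 cadmium values, the difference in the mutant was 4.20.

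AT5G06730 gave the largest of these responses. It read 9.11, 9.87 and 9.16 in cadmium-treated oas-a1.1 roots, against 4.65, 5.07 and 4.88 in untreated oas-a1.1 roots. In WT roots it read 5.91, 4.88 and 5.54 under cadmium, against 4.69, 4.57 and 4.30 untreated. The groups did not overlap in either genotype, and the lowest mutant cadmium array was still more than 3 log2 units above the highest WT cadmium array. The cadmium difference was 4.51 ± 0.26, or 22.8-fold, in the mutant, the 2nd highest of all probe sets, and 0.92 ± 0.26, or 1.90-fold, in WT. Under cadmium, mutant roots exceeded WT roots by 3.94 for AT5G06730, the highest difference of all probe sets in that comparison, and by 2.87 for PRX52. The contrasts with untreated mutant roots and with cadmium-treated WT roots share the mutant cadmium arrays.

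AT4G36430 was higher under cadmium in both genotypes. It read 12.03, 12.26 and 12.18 in cadmium-treated oas-a1.1 roots, against 9.01, 9.01 and 9.06 in untreated oas-a1.1 roots. In WT roots it read 10.46, 10.49 and 10.80 under cadmium, against 8.14, 8.19 and 6.80 untreated. None of the 4 root groups overlapped, and the mutant arrays lay above the WT arrays in each treatment. The cadmium difference was 3.13 ± 0.29, or 8.75-fold, in the mutant and 2.87 ± 0.29, or 7.33-fold, in WT. These differ by 0.26 ± 0.42 between genotypes. The third untreated WT array was low, and without it the difference in WT was 2.42 and the gap between genotypes 0.71. Under cadmium, mutant roots exceeded WT roots by 1.57.

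AT5G39580 was the one gene of the 4 that was lower under cadmium, and it was so in WT roots. It read 6.62, 7.54 and 7.16 in cadmium-treated oas-a1.1 roots, against 6.70, 7.08 and 5.81 in untreated oas-a1.1 roots. In WT roots it read 5.11, 4.89 and 4.84 under cadmium, against 8.96, 8.86 and 6.60 untreated. The mutant groups overlapped, and the WT groups did not. The cadmium difference was 0.58 ± 0.55 in the mutant and -3.19 ± 0.55, a level 0.109 of the untreated one, in WT. The WT difference was the 7th lowest of all probe sets, and it was -3.96 without the third untreated WT array, the same array on which AT4G36430 was low. In the mutant the difference was 0.22 to 0.85 when one array was left out. Under cadmium, mutant roots exceeded WT roots by 2.16 for AT5G39580.

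Set side by side, 3 of the 4 genes were higher without overlap under cadmium in mutant roots, and 2 of the 4 were higher and 1 lower without overlap in WT roots. Among all probe sets, limma called 4.26% in the mutant, 2.46% higher and 1.81% lower, and 3.91% in WT, 1.64% higher and 2.27% lower. Those calls are a different measure from lack of overlap, whose share over all probe sets was not counted. Nothing is read from the members' counts because these contrasts chose them. The difference between genotypes in the cadmium response was 3.77 ± 0.77 for AT5G39580, 3.59 ± 0.37 for AT5G06730 and 3.08 ± 0.68 for PRX52. A similar gap was reached in different ways, by a level raised under cadmium in the mutant for AT5G06730 and PRX52 and by one lowered under cadmium in WT for AT5G39580. For AT5G39580 the untreated means also differed, 8.14 in WT and 6.53 in the mutant, with overlapping groups. In bulk roots, fewer cells that express a gene and less of its RNA per cell cannot be told apart.

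In shoots the 4 genes varied less than in roots, but they were chosen for root levels that moved with cadmium. The spans therefore describe that choice and carry no test, and hours of treatment also differed between organs. The 48 shoot values lay between 3.73 and 5.04, and over the 12 shoot arrays a gene spanned at most 0.66, which was PRX52. Over the 12 root arrays the spans were 4.79 for PRX52, 5.57 for AT5G06730, 5.46 for AT4G36430 and 4.12 for AT5G39580. The cadmium differences in shoots ran from -0.09 to 0.20 over both genotypes. For PRX52, the 3 untreated WT shoot arrays, at 4.43 to 4.45, lay below the 3 cadmium-treated WT shoot arrays, at 4.46 to 4.87, and the 3 untreated mutant shoot arrays, at 4.49 to 5.04. The gaps were small beside the spread of the higher groups, and the untreated WT arrays had an SD of 0.01, so no response is read from them.

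Without cadmium, mutant and WT roots differed by 1.32 ± 0.29 for AT4G36430, with the 3 mutant arrays above the 3 WT arrays. AT5G39580 differed by -1.61 ± 0.55, with overlapping groups, and AT5G06730 and PRX52 by 0.35 ± 0.26 and -0.22 ± 0.48. The third untreated WT root array was the lowest of the 3 for both AT4G36430 and AT5G39580, and without it their differences were 0.86 and -2.38. In untreated shoots the differences were 0.31 for PRX52, 0.07 for AT4G36430, 0.00 for AT5G39580 and -0.14 for AT5G06730. These are descriptions too, since levels over all 8 groups chose the genes.

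Between organs of untreated WT the genes split into pairs. AT5G39580 was 4.19 ± 0.42 higher in roots than in shoots, and AT4G36430 was 3.07 ± 0.23 higher, with no overlap for either. Without the third untreated WT root array these differences were 4.96 and 3.52. AT5G06730 and PRX52 each differed by 0.15. For PRX52 the sign depended on the processing, with a difference of -0.23 once the 25S control entered the model as a covariate. These values also belong to the levels that chose the genes and carry no test.

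The rest of the family was examined to place these 4 genes. Cadmium changed 14 of the other 51 peroxidases in mutant roots, with 8 higher and 6 lower, or 27.5% against 4.26% of all probe sets, of which 2.46% were higher and 1.81% lower. In WT roots it changed 7 of the 51, with 3 higher and 4 lower, or 13.7% against 3.91% of all probe sets, of which 1.64% were higher and 2.27% lower. The median difference was 0.05 over the other 51 in the mutant and -0.01 over all probe sets, and in WT 0.08 and 0.02. The family therefore held rises and falls together, with no common direction in its median. Of the calls, 6 were shared between genotypes with the same sign, which is 42.9% of those in the mutant and 85.7% of those in WT.

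Among the rises in mutant roots, AT1G71695 read 8.61, 9.40 and 8.63 under cadmium, against 7.06, 6.30 and 6.43 untreated, a difference of 2.28 ± 0.26 (limma, adjusted p = 0.000538). AT1G49570 read 10.07, 11.22 and 10.09 under cadmium, against 8.51, 8.15 and 8.14 untreated, a difference of 2.19 ± 0.29 (adjusted p = 0.0016). Prx37, which restricts growth when overexpressed, read 10.93, 11.09 and 10.85 under cadmium, against 9.66, 9.06 and 9.02 untreated, a difference of 1.71 ± 0.25 (adjusted p = 0.0028). None of these groups overlapped, which was a condition for naming the genes and adds nothing to the calls. Each rise was smaller than those of PRX52, AT5G06730 and AT4G36430 in the same roots, but those genes were chosen for such responses, so nothing is read from the order. Further rises were those of AT3G49960 by 1.70, AT5G19890 by 1.55 and AT4G08780 by 1.49. AT3G49960 no longer passed when untreated array 2 or 3 was left out, with an adjusted p of at most 0.0525, and AT4G08780 did not pass on the arrays with high 25S signal, with 0.0643.

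Among the falls in mutant roots, AT5G15180 read 7.81, 7.75 and 6.89 under cadmium, against 9.85, 9.33 and 9.68 untreated, a difference of -2.14 ± 0.32 (limma, adjusted p = 0.0030). AT2G18980 read 7.46, 6.69 and 7.40 under cadmium, against 8.95, 9.18 and 8.93 untreated, a difference of -1.84 ± 0.29 (adjusted p = 0.0047). AT4G26010, a gene of root hairs, read 8.86, 7.83 and 8.76 under cadmium, against 10.57, 9.97 and 9.96 untreated, a difference of -1.68 ± 0.31 (adjusted p = 0.0106). These falls came in the genotype in which AT5G39580 read 0.58 higher. AT2G37130, AT3G21770 and AT5G64100, which acts with AT5G39580 in root hairs at low temperature, fell by 0.84, 0.73 and 0.70. AT2G37130 no longer passed without untreated array 2 or on the arrays with high 25S signal, with an adjusted p of at most 0.0585 over all settings tried. AT3G21770 did not pass with the compared arrays alone, with an adjusted p of 0.0638. The call on AT5G64100 was lost without 1 mutant array in 4 of the 6 cases, the first cadmium array and each of the 3 untreated ones. It was also lost with centring, with the compared arrays alone and on the arrays with high 25S signal. Its adjusted p was at most 0.0936 over all settings tried.

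In WT roots the largest fall among the other peroxidases was that of AT2G37130, which read 10.06, 9.69 and 9.64 under cadmium, against 11.32, 11.73 and 11.35 untreated. The difference was -1.67 ± 0.16 (limma, adjusted p = 0.000201), beside -3.19 in the same roots for AT5G39580, which was chosen by these levels. AT5G51890 fell by 0.81 ± 0.10 (adjusted p = 0.0015), and these were the 2 calls that held without any one WT array. The remaining 5 were rises of AT3G49960 by 1.57, AT5G19890 by 0.80 and AT4G11290 by 0.68, and falls of AT5G15180, with -1.36, and AT4G26010, with -1.29. Their adjusted p lay between 0.0195 and 0.0457, each was lost without at least 3 of the 6 arrays in turn, and the count was 2 to 5 when one array was left out. Leaving out cadmium arrays 1, 2 and 3 gave 4, 3 and 2 calls, and leaving out untreated arrays 1, 2 and 3 gave 4, 3 and 5 calls.

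**Figure D1:**
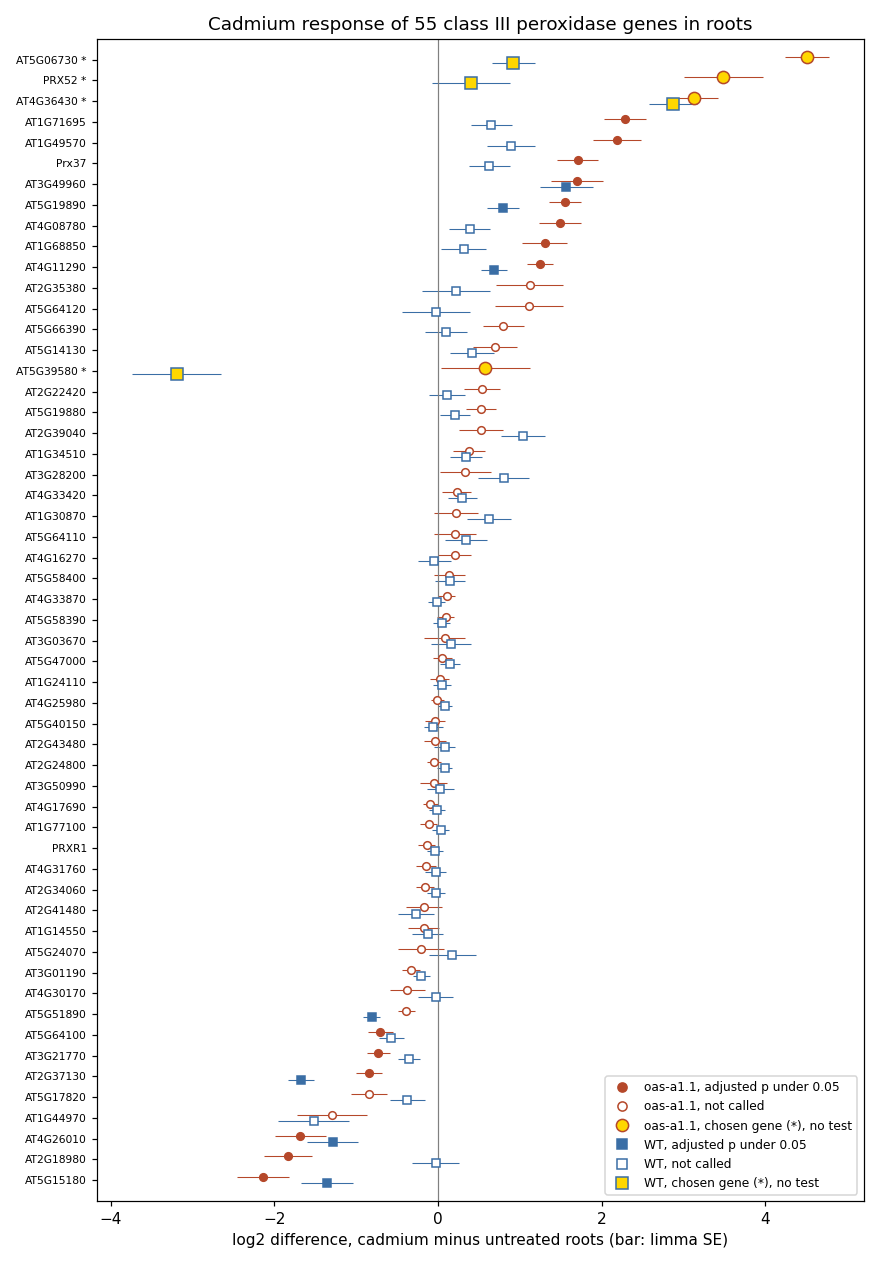
Log2 differences of the 55 measured class III peroxidase genes, cadmium minus untreated, in oas-a1.1 roots and in WT roots, with limma standard errors; genes called at an adjusted p under 0.05 are filled for the 51 not chosen, and the 4 chosen genes carry an asterisk and no test. AT5G06730, PRX52 and AT4G36430 lie at the high end in the mutant at 4.51, 3.49 and 3.13, and AT5G39580 at the low end in WT at -3.19.

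Under cadmium, 3 of the other 51 peroxidases were higher in mutant than in WT roots and 0 were lower, or 5.88% against 1.74% of all probe sets, of which 1.22% were higher and 0.519% lower. AT4G08780 read 8.86, 9.44 and 8.35 in mutant roots, against 6.95, 6.98 and 7.44 in WT roots, a difference of 1.76 ± 0.25 (limma, adjusted p = 0.0085). AT1G71695 differed by 1.27 ± 0.26 (adjusted p = 0.0318) and AT4G11290 by 0.80 ± 0.16 (adjusted p = 0.0314). The groups of all 3 did not overlap, which was a condition for naming them. Their differences were below those of PRX52, AT5G06730 and AT5G39580, whereas that of AT4G36430, 1.57, lay below that of AT4G08780. The chosen genes were picked by such levels, so nothing is read from this order. With the replicate number as a block, 6 of the 51 were called, 4 higher and 2 lower, and on the arrays with high 25S signal alone 0 were called. Leaving out mutant array 2 or 3, or WT array 1 or 2, left 1 call, and leaving out any other array left 2. AT4G08780 passed in all 6 of these fits, AT1G71695 in 1 and AT4G11290 in 0, with adjusted p of at most 0.122 and 0.144 for AT1G71695 and AT4G11290 over all settings tried.

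The genotypes were also compared in the size of the cadmium response itself. Of the other 51 peroxidases, limma called 0 for this interaction in roots, against 0.747% of all probe sets, and 10 had an unadjusted p under 0.05, or 19.6% against 8.93% of all probe sets. AT1G71695, the nearest to the threshold and so picked after its value was seen, had an interaction of 1.63 with an adjusted p of 0.0703. The interaction count was 0 to 1 with an array left out, and it moved with other settings, as the last section gives. With 3 arrays a group it does not show that the responses were equal. A call in one genotype and not in the other is by itself no sign that the 2 responses differ. In untreated roots limma called 0 of the 51 between mutant and WT, against 0.356% of all probe sets, and 3 had an unadjusted p under 0.05, or 5.88% against 6.79% of all probe sets.

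In shoots limma called 0 of the other 51 in any comparison. Of all probe sets, 2.18% passed with cadmium in mutant shoots, 5.58% with cadmium in WT shoots, 0.154% for mutant against WT under cadmium, 1.46% for mutant against WT untreated and 0.444% for the interaction. At an unadjusted p under 0.05, cadmium gave 5 of the 51, or 9.8%, in mutant shoots and the same number in WT shoots, against 13.9% and 17.6% of all probe sets. Mutant against WT gave 3 of the 51, or 5.88%, under cadmium and again untreated, against 9% and 14.6% of all probe sets. The interaction gave 2 of the 51, or 3.92%, against 12.2% of all probe sets. AT2G37130, named here after its value was seen, read 10.55, 10.75 and 10.75 in cadmium-treated WT shoots, against 9.52, 9.28 and 9.80 untreated. These groups did not overlap, and the difference of 1.15 had an adjusted p of 0.0524 in limma.

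The family differed widely between organs. In untreated WT, 28 of the other 51 peroxidases were higher in roots and 2 lower, or 58.8% against 44.2% of all probe sets, of which 23.1% were higher and 21.2% lower. The median difference was 1.07, against 0.04 over all probe sets, and 27 genes were at least 2-fold higher in roots. AT3G01190 read 12.68, 12.73 and 12.72 in roots, against 4.48, 4.22 and 4.40 in shoots, a difference of 8.34 ± 0.10 (limma, adjusted p = 9.44e-23). AT5G64100 followed at 8.09, then AT4G30170 at 6.79, AT3G21770 at 6.56, AT3G03670 at 6.52 and AT5G17820 at 6.43. AT1G71695, which rose with cadmium in mutant roots, was lower in roots than in shoots with a difference of -1.91 ± 0.24, and AT5G58390 with -0.51 ± 0.11. The differences of AT5G39580 and AT4G36430 lay within the range of the 28 root-high genes but below those of the root-high genes named above. Those of AT5G06730 and PRX52 lay near 0.

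**Figure D2:**
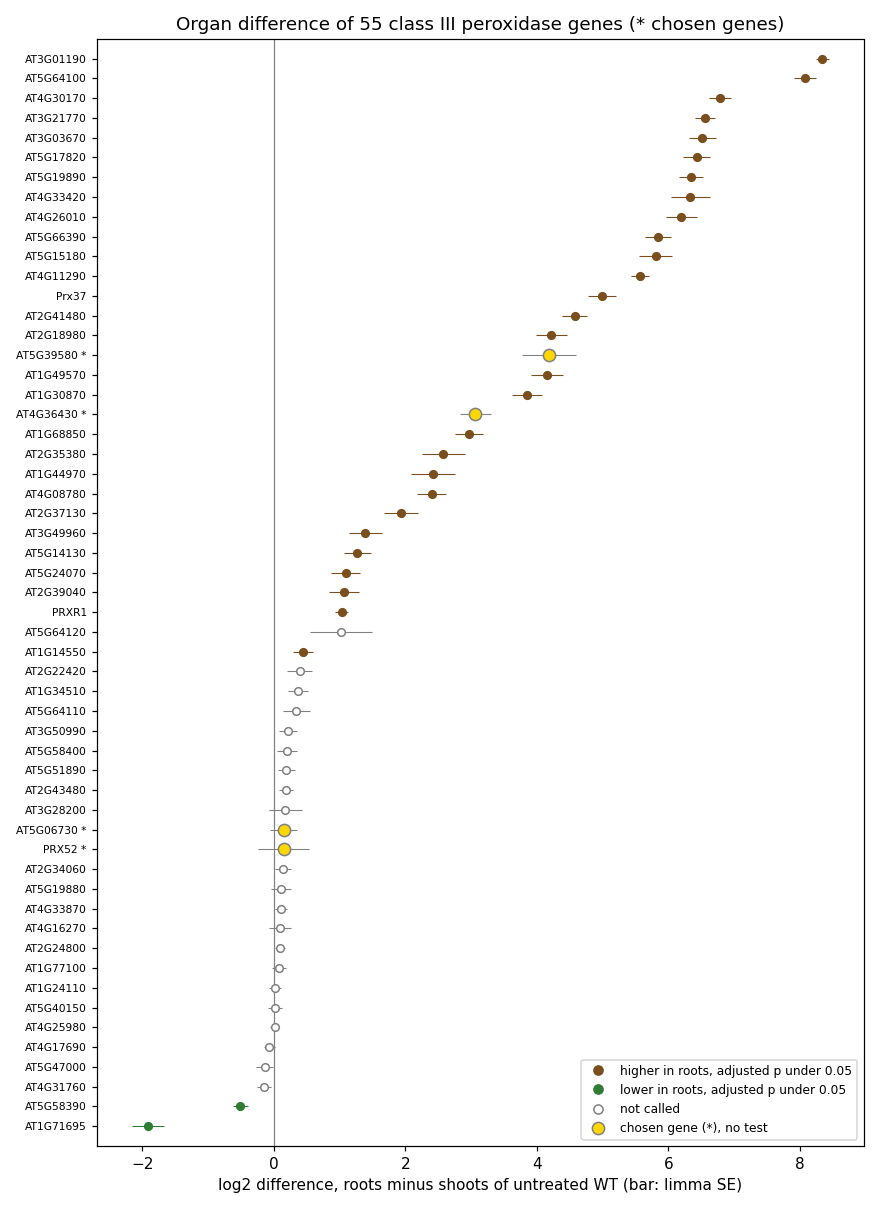
Log2 differences between roots and shoots of untreated WT for the 55 measured class III peroxidase genes, ordered by size, with limma standard errors; an asterisk marks the chosen genes, which carry no test. AT5G39580 and AT4G36430 lie among the root-high genes at 4.19 and 3.07, and AT5G06730 and PRX52 lie near 0 at 0.15 each.

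Several family genes are neighbours on a chromosome, and their values are given by position. Prx37 and AT4G08780 differed by 1.71 and 1.49 with cadmium in mutant roots, and by 0.63 and 0.39 in WT roots. AT5G19890 and its neighbour AT5G19880 differed by 1.55 and 0.53 in mutant roots, and AT5G58390 and AT5G58400 by 0.09 and 0.14. In the run of 3 genes AT5G64100, AT5G64110 and AT5G64120, the differences in mutant roots were -0.70, 0.21 and 1.11, of which the first alone passed the test. Differences between neighbours were not tested. Related transcripts can share probes, so values of tandem copies are less certain than the others.

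Partner enzymes of peroxidases were measured in small numbers, 2 of 19 listed monolignol genes, 1 of 17 laccases, 3 of 10 NADPH oxidases, 1 of 8 Casparian strip genes and 2 of 18 enzymes that remove peroxide inside the cell. CCR2, a cinnamoyl-CoA reductase of monolignol synthesis, read 8.36, 8.44 and 8.70 in cadmium-treated mutant roots, against 6.13, 6.38 and 7.08 in untreated mutant roots. The rise was 1.97 ± 0.28 (limma, adjusted p = 0.0026), and the groups did not overlap. Under cadmium CCR2 was 1.62 ± 0.28 higher in mutant than in WT roots (adjusted p = 0.0191), which no longer passed when mutant array 2 or 3 or WT array 2 was left out, or on the arrays with high 25S signal, with an adjusted p of at most 0.0838. HCT, the other measured monolignol gene, differed by -0.63 with cadmium in mutant roots (adjusted p = 0.0605). The laccase, the 3 NADPH oxidase genes and the Casparian strip receptor GSO1 were not called with cadmium in either genotype's roots. SAPX, a chloroplast ascorbate peroxidase, read 7.10, 6.63 and 7.04 in cadmium-treated mutant shoots, against 8.07, 7.99 and 8.31 in untreated mutant shoots. It fell by 1.20 ± 0.25 (adjusted p = 0.0342), a call that was lost without any one of the 6 arrays, with an adjusted p of at most 0.179. The root marker PYK10 was itself 0.57 higher in cadmium-treated mutant roots and 0.71 higher in cadmium-treated WT roots, and its part in the results was not tested. Its call in the mutant did not pass without cadmium array 2 or 3 or untreated array 1. The call was also lost with the compared arrays alone and on the arrays with high 25S signal, with an adjusted p of at most 0.131.

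Between organs of untreated WT, CCR2 and HCT were 1.50 and 1.33 higher in roots, the NADPH oxidase genes AT4G11230, AT4G25090 and AT1G19230 were 2.12, 1.79 and 0.73 higher, and GSO1 was 3.08 higher. TAPX, a chloroplast thylakoid ascorbate peroxidase, was lower in roots, with a difference of -3.79. All of these passed the limma test, as did 44.2% of all probe sets, of which 23.1% were higher in roots and 21.2% lower. The measured laccase, LAC16, and SAPX differed by 0.44 and 0.17 and were not called.

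The genes with the most similar patterns were sought among the other 13512 probe sets with a single gene, by the root mean square difference between the 8 group means after centring each gene. The nearest to AT5G06730 was AT2G15780 at 0.34, and PRX52 was 2nd at 0.63, followed by AT2G17850 at 0.68. The nearest to PRX52 were AT3G29970 at 0.47, scpl28, a serine carboxypeptidase-like gene, at 0.50, and AT2G48090 at 0.51, and AT5G06730 came 15th. The nearest to AT4G36430 were the peroxidases AT1G49570 at 0.71 and Prx37 at 0.78, then AT3G13650 at 0.78. The nearest to AT5G39580 were AT3G43430 at 0.58, the calmodulin-like gene CML43 at 0.58 and AT5G12340 at 0.59. The 8 points come from the same arrays for every gene, and the values describe likeness only.

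**Figure D3:**
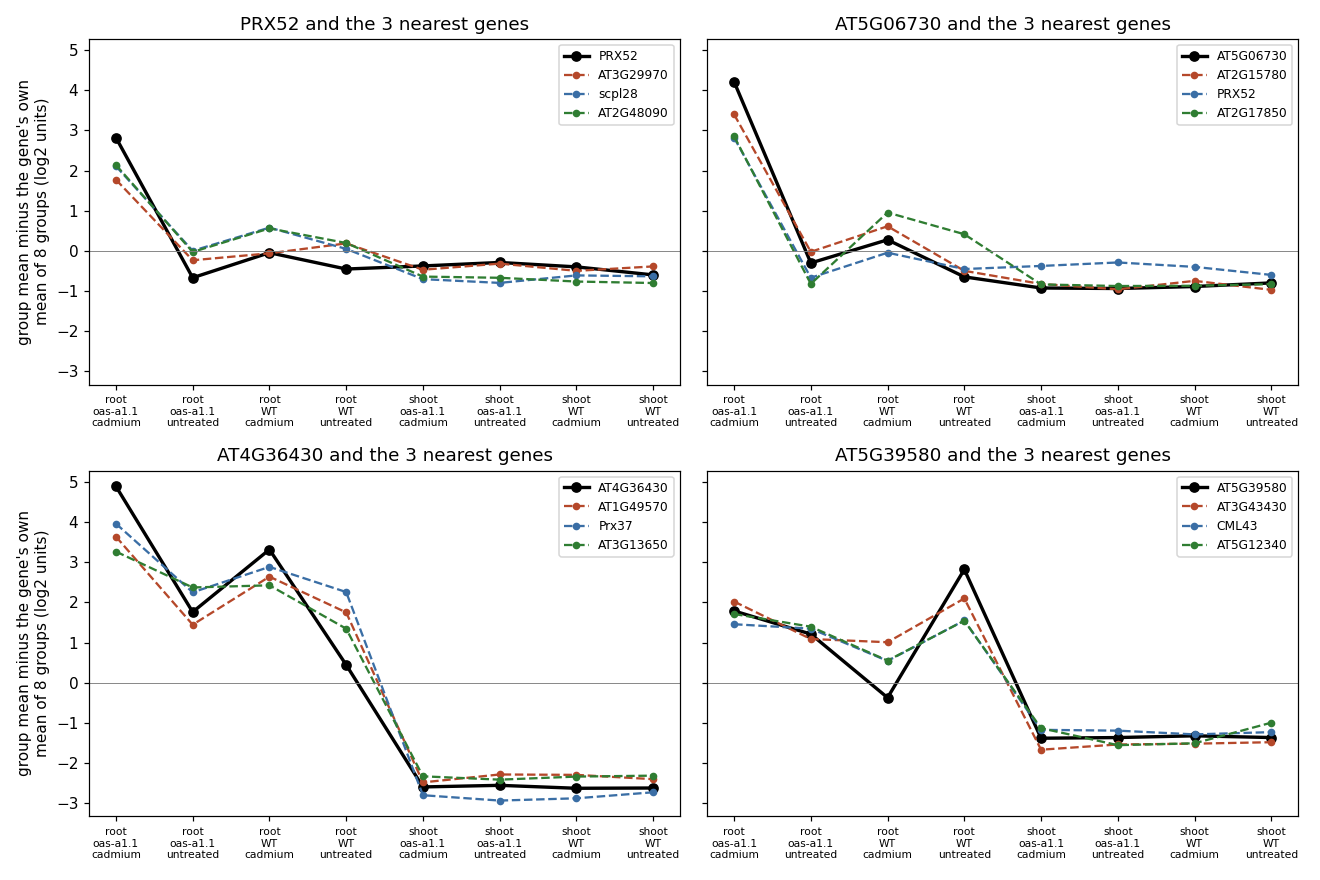
Group means of each chosen gene and of its 3 nearest genes, minus the gene's own mean over the 8 groups (log2 units); lines join the values of 1 gene and carry no order. AT2G15780 follows AT5G06730 most closely, at a root mean square difference of 0.34, and AT5G39580's neighbours share its shape with a smaller drop in cadmium-treated WT roots.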

How the data were processed

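RNA from 24 samples was measured on Affymetrix ATH1 arrays. The authors deposited log2 values, and the submitters' processing notes name RMA and the affy package, without versions and without saying whether all arrays were normalized together. Values were used as deposited. Of 22810 probe sets, 64 controls were dropped, and no filter on level was set. Of the tested probe sets 13513 have a single gene in the annotation used; the others are not named.

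Each organ was fitted with limma 3.58.1 in R 4.3.3, as 4 group means; roots against shoots used all 24 arrays. Two-sided p values were adjusted over all probe sets (Benjamini and Hochberg), and under 0.05 was called. SDs describe 3 arrays a group, and this number limits the precision. SEs come from limma, with a spread pooled over all groups in the fit and moderated over probe sets. They can understate the noise of a more variable group, such as untreated WT roots for AT5G39580, with an SD of 1.33. The fit for cadmium in WT roots alone was tried on simulated data, with independent noise, equal spread in all groups and no replicate effect. The real arrays depart from that setting, so the simulation does not cover them fully.

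The 4 genes, the lists and the tests were chosen with earlier results of these data known; the 4 genes themselves were given no test, although one had been planned for untreated arrays, because levels over all 8 groups chose them. Besides the 4 genes, those named were up to 6 rises and 6 falls called without overlap per comparison, up to 3 called genes per other list, and the 3 nearest patterns. Residuals of same-numbered arrays correlated at 0.111 to 0.639 for mutant against WT roots under cadmium, with every pair above 0.1, so the blocked count is given there. The search of promoters for motifs was not run. Other settings tried were a filter on level, centring, quantile normalization again, the 25S level as a covariate, a trended prior, the compared arrays alone, the replicate block, each array left out and, added after seeing the data, only arrays with a 25S level of at least 7.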

Additional observations from a re-analysis of the deposited data

Results flagged for a closer look

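AT5G39580 stood out because the arrays of the genotypes moved in opposite directions with cadmium in roots. The oas-a1.1 cadmium arrays lay 0.09 to 1.01 above the mean of untreated oas-a1.1 roots, and the WT cadmium arrays lay at -3.3 to -3.03 from the mean of untreated WT roots. The difference between the responses was 3.77 on the log2 scale. It was not tested, because the gene was chosen for its cadmium response, and the untreated and cadmium arrays of the mutant overlap.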

How the results depend on the processing

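For the 4 genes, directions of the root cadmium responses were the same in all settings. PRX52 in mutant roots with cadmium was 4.20 on the arrays with high 25S signal alone (2.91 to 4.12 with an array left out). On those arrays the shoot differences with cadmium were 0.20 for PRX52 in the mutant, and -0.14 for AT4G36430 and -0.17 for AT5G39580 in WT, and untreated mutant minus WT shoots was -0.19 for AT5G39580. These shoot values are weak, because replicate 3 alone was left in cadmium-treated mutant shoots and in untreated WT shoots. With cadmium in WT roots, AT4G36430 was 2.42 to 3.11 and AT5G39580 was -3.96 to -2.78 with an array left out. In untreated roots, mutant against WT, these ranges were 0.86 to 1.56 and -2.38 to -1.20. Between organs AT4G36430 was 2.83 to 3.52 and AT5G39580 was 3.78 to 4.96 with an array left out, and PRX52 was -0.23 with the 25S covariate and -0.01 to 0.32 with an array left out.

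Counts of the other 51 peroxidases called were 10 to 16 with an array left out for cadmium in mutant roots, and 2 to 5 in WT roots; with the replicate block they were 21 (13 higher, 8 lower) and 10. For mutant against WT roots under cadmium they were 5 with the filter and with centring, 1 with the compared arrays alone, 6 with the replicate block, 0 on the high-25S arrays, and 1 to 2 with an array left out. The root interaction gave 2 with the filter, 1 with centring, quantile normalization or the replicate block, and 0 to 1 with an array left out. Cadmium in WT shoots gave 1 with the filter, centring, the trended prior or the compared arrays alone. Cadmium in mutant shoots gave 1 with the trended prior or the compared arrays alone and 2 with the replicate block. In each shoot comparison but mutant against WT under cadmium, leaving an array out gave 0 to 1. The cause was not tested. The replicate block moved no other total by over 1.5 times. With 3 arrays a group, replicate spread and low levels limit what the shoots can show.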
